A study of Mus musculus and Homo sapiens with 22 samples.

Results

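The 34 mouse genes described here encode proteins of homologous recombination, the Fanconi anaemia pathway and the checkpoint kinases that signal broken or stalled DNA. They were taken by symbol, from a list of known pathway genes, among the 38924 gene IDs of the 12 libraries labelled 4T1. All 34 were found, and all 34 were among the 15375 genes that passed the filter on low counts. 4T1 is a mammary carcinoma cell line from a female mouse, and no other mouse line is named in the labels. RNA was taken after 24 h of treatment and sequenced as 2 libraries per group. The groups were DMSO 1 and 2, ENMD-2076 at 1.25 µM and ENMD-2076 at 2.5 µM, and then DMSO 3 and 4, TAK901 at 1 µM and TAK901 at 2 µM. The ENMD-2076 doses are those of the labels, while the column headers of the deposited counts name the same other dose for both groups. DMSO is the solvent control, and each compound is known to inhibit Aurora kinases, which act in spindle assembly and chromosome segregation. Treated libraries were compared within their naming set only, so the ENMD-2076 doses share DMSO 1 and 2 and the TAK901 doses share DMSO 3 and 4.

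Homologous recombination repairs a double-strand break, or a broken replication fork, by copying the sister chromatid. The MRN complex, which includes Rad50 and Nbn, and Rbbp8 (CtIP) open the end, Exo1 lengthens the single strand, and Brca1, Bard1, Palb2 and Brca2 ready that strand to pair with the sister, with the help of Rad51b, Rad51c, Rad51d, Xrcc2 and Xrcc3. The Fanconi core complex puts ubiquitin on Fancd2 and Fanci where the strands are crosslinked, and Atm, Atr, Chek1 and Chek2 hold the cell cycle meanwhile. Many of these genes are transcribed in dividing cells, mostly around S phase.

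Total counts were 6004077 and 3746588 reads for TAK901 at 2 µM and between 14418492 and 30866819 reads for the other 10 libraries. Levels are given as CPM, each gene's count relative to its library's total after scaling by the trimmed mean of M values (TMM). The scaling factors were 0.766 and 0.784 in the ENMD-2076 2.5 µM pair and 0.989 to 1.12 elsewhere. The mitochondrial share of reads was 3.92 and 4.13% in DMSO 1 and 2, 6.21 and 7.09% with 1.25 µM ENMD-2076, 8.83 and 8.72% with 2.5 µM, 1.94 and 2.04% in DMSO 3 and 4, and 2.64 to 2.98% in the 4 TAK901 libraries. Gm26917, a long non-coding RNA, stood at 36.5 and 29.9 CPM, here without the TMM scaling, in DMSO 1 and 2, at 50.6 and 41.7 with 1.25 µM, and at 2190 and 2000 with 2.5 µM. All 7 epithelial markers were detected in every library, with a summed level of 3050 to 5950 CPM and Epcam at 350 and 355 CPM in DMSO 1 and 2. Single markers differed between groups. Krt14 stood at 0.649 and 0.295 CPM in DMSO 1 and 2 and at 56.4 and 53.7 with 1.25 µM ENMD-2076. Krt7 stood at 950 and 984 CPM in DMSO 1 and 2 and at 164 and 155 in DMSO 3 and 4. Krt19 went the other way, from 68.2 and 65.9 CPM to 1000 and 841. Fibroblast markers summed to 16.9 to 44.4 CPM, most of it Pdgfra (36.8 and 43.4 CPM in DMSO 1 and 2) and with Thy1 at 0, haematopoietic markers to 5.06 to 14.8 CPM, and endothelial markers to 0.129 to 5.04 CPM. The TAK901 naming set stood apart from its label: Y-linked genes, which a female line does not carry, summed to 0 CPM in the ENMD-2076 set and to 238 to 253 CPM in the TAK901 set. Endoderm markers summed to 0 to 0.0541 CPM and 282 to 340 CPM. Separate cultures are not stated for the replicates, so p-values cover the spread between libraries alone, and that spread may be technical.

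With 1.25 µM ENMD-2076 the recombination and Fanconi genes fell. Of the 34, 27 were lower than in DMSO 1 and 2, 0 were higher and 7 did not pass the test (edgeR quasi-likelihood test, with a threshold of 0.05 on p adjusted by Benjamini-Hochberg over all genes tested). Over all genes tested 45.9% were called, 22.6% higher and 23.2% lower. The median log2 fold change of the 34 was -1.22, where that of all genes tested was 0.00. DESeq2 called 0 higher and 26 lower, and its share over all genes was not counted. At an unadjusted p under 0.05 edgeR gave 0 higher and 28 lower, where 51.5% of all genes tested had such a p. In bulk RNA, fewer cells in the phase that transcribes a gene and less of its RNA per cell cannot be told apart.

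With 2.5 µM the same list split, as did all genes tested. Here 15 members were higher than in DMSO 1 and 2, 15 were lower and 4 did not pass, where 70.3% of all genes tested were called, 33.2% higher and 37.1% lower. The median of the members was -0.01 and that of all genes tested -0.02. Compared directly, 22 members were higher with 2.5 µM than with 1.25 µM, 6 were lower and 6 did not pass, where 73.3% of all genes were called, 35.4% higher and 37.8% lower. The median of that difference was 1.30 in the members and -0.00 over all genes tested, and its range ran from -1.49 (Rad51d) to 5.61 (Exo1). Scaling by total counts alone lowered the median of all genes at 2.5 µM to -0.37 against DMSO and -0.38 against 1.25 µM, and gave 12 members above and 17 below DMSO, and 21 above and 8 below 1.25 µM. The shares of mitochondrial reads and Gm26917 given above moved with the 2.5 µM pair, and their part in these counts was not tested.

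**Figure D1:**
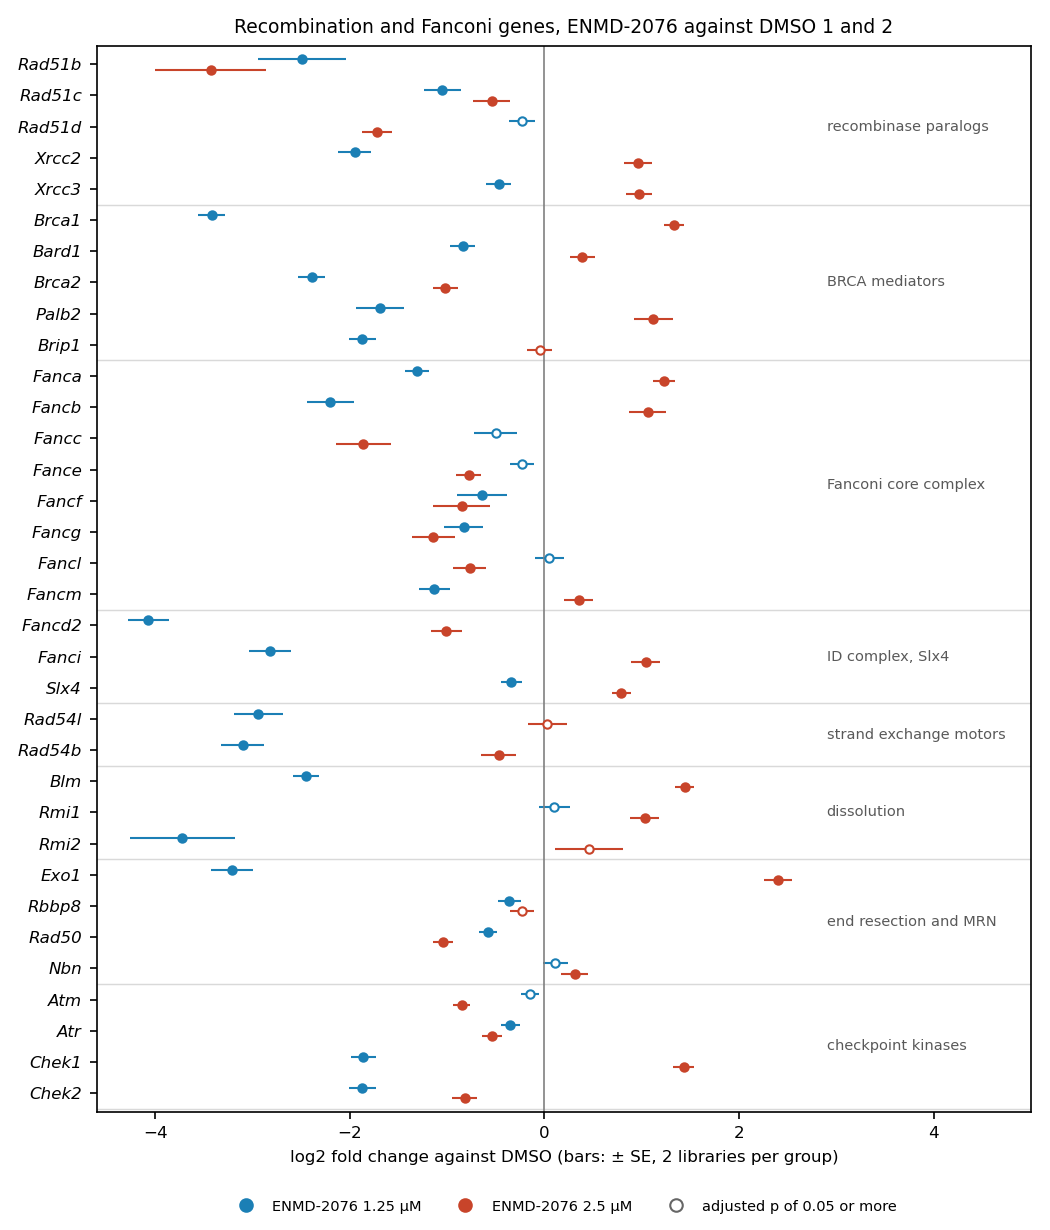
Log2 fold change of each of the 34 genes against DMSO 1 and 2 (x axis, bars ± SE, 2 libraries per group) for both ENMD-2076 doses, with genes grouped by role and open circles for an adjusted p of 0.05 or more (edgeR). The 1.25 µM points lie between -4.07 and 0.11, and the 2.5 µM points spread from -3.43 to 2.40 on both sides of 0.

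Promoter sequence was looked at because many of these genes moved together. E2F factors switch on genes for S phase at sites with the letters TTTNNCGC, and TTTGAA is the core of a site found in genes of mitosis. Both were searched on both strands in RefSeq windows of 250 bases before to 50 bases after the start of transcription (build GRCm38.p6), and no site can match both at the same position. A window was found for 25 of the 34 genes. TTTNNCGC occurred in 7 of the 25 genes, or 28%, where 5.93% of all 27025 genes with a window and 9.44% of the 10811 tested ones had it. TTTGAA occurred in 2 of 25, or 8%, against 20.2% of all genes and 14.3% of the tested ones. The following 60-base stretches, each upstream of the gene's start in GENCODE release 21, show 3 genes with TTTNNCGC (capitals, reverse complement in Brca2 and Chek2) and 1 without it, all on the gene's own strand.
Bard1, chr1:71103148-71103207, minus strand: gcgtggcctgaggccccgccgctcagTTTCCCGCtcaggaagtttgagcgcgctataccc
Brca2, chr5:150522427-150522486, plus strand: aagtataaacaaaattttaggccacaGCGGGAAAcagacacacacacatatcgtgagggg
Chek2, chr5:110839805-110839864, plus strand: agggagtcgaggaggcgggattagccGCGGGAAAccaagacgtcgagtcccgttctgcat
Brca1, chr11:101551956-101552015, minus strand: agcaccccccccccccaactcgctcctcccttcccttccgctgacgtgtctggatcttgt
Genes with and without the letters both moved. The 7 genes with TTTNNCGC had a median log2 fold change of -1.05 at 1.25 µM and -0.54 at 2.5 µM, and the 18 without it had -1.22 and 0.57. Brca1, with no match in its window, had the second largest difference between the doses of all members, and a match or its absence is a description of these letters only.

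Among the genes that ready the resected strand for pairing, all 5 fell at 1.25 µM, where 23.2% of all genes tested were lower. Brca1, the ubiquitin ligase subunit and tumour suppressor (ENSMUSG00000017146.6, GRCm38 chromosome 11, 101488764 to 101551955, minus strand), stood at 37.8 and 31.8 CPM in DMSO 1 and 2, at 2.41 and 3.7 CPM with 1.25 µM ENMD-2076, and at 94 and 81 CPM with 2.5 µM. The 3 groups did not overlap, and both 2.5 µM libraries lay above both DMSO libraries. Its log2 fold change was -3.42 (SE 0.14, edgeR adjusted p = 2.54e-19) at 1.25 µM and 1.33 (SE 0.10, adjusted p = 1.18e-13) at 2.5 µM, and the doses differed by 4.75 (SE 0.13, adjusted p = 4.04e-24), or 26.9-fold. Bard1, the ligase partner of Brca1, stood at 21.4 and 18.7, 9.28 and 12.6, and 23.2 and 30.1 CPM in the same order. Its log2 fold changes were -0.84 and 0.39, and the rise at 2.5 µM was lost without replicate 2 of that dose (0.24, edgeR adjusted p = 0.145) and with total-count scaling (0.04, adjusted p = 0.847). Palb2, which links Brca1 to Brca2, stood at 4.7 and 6.54 CPM in DMSO 1 and 2, 1.31 and 1.96 at 1.25 µM and 13.4 and 10.9 at 2.5 µM (log2 fold changes -1.69 and 1.12).

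Brca2 and Brip1 did not follow Brca1 at 2.5 µM. Brca2, a tumour suppressor of the same step (ENSMUSG00000041147.7, chromosome 5, 150522630 to 150570329), stood at 39.6 and 34.1 CPM in DMSO 1 and 2, at 5.23 and 8.08 with 1.25 µM, and at 19.8 and 16.3 with 2.5 µM. Both doses lay below both DMSO libraries, with 2.5 µM between the others. The log2 fold changes were -2.39 (SE 0.14, edgeR adjusted p = 3.38e-15) and -1.02 (SE 0.13, adjusted p = 4.86e-08). Brip1, a helicase that binds Brca1, stood at 18.2 and 18, 4.61 and 5.12, and 16.4 and 18.8 CPM. It fell by 1.87 on the log2 scale at 1.25 µM, and at 2.5 µM the libraries overlapped those of DMSO (-0.05, SE 0.13, adjusted p = 0.779). Scaled by total counts, Brip1 was lower at 2.5 µM as well (-0.40, edgeR adjusted p = 0.00602).

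Rad51b, Rad51c, Rad51d, Xrcc2 and Xrcc3, which form complexes that assist strand pairing, differed from each other at 2.5 µM. Xrcc2 stood at 10.2 and 9.9 CPM in DMSO 1 and 2, at 2.54 and 2.61 with 1.25 µM, and at 19.6 and 19.5 with 2.5 µM. The libraries of each dose were nearly equal, and the log2 fold changes were -1.95 (SE 0.17, edgeR adjusted p = 5.62e-11) and 0.96 (SE 0.14, adjusted p = 4.56e-07). Xrcc3 stood at 27.5 and 25.2, 16.5 and 21.1, and 50.9 and 52.4 CPM, with log2 fold changes of -0.47 and 0.97. The smaller fall was lost without replicate 1 of 1.25 µM (-0.32, edgeR adjusted p = 0.0558). Rad51d went the other way: its 26.1 and 23.8 CPM in DMSO 1 and 2 compared with 19.3 and 22.9 at 1.25 µM and 6.82 and 8.49 at 2.5 µM. Its log2 fold change did not pass at 1.25 µM (-0.23, edgeR adjusted p = 0.147) and was -1.72 (SE 0.15, adjusted p = 1.1e-11) at 2.5 µM, and the direct difference was -1.49 (2.81-fold lower with 2.5 µM). Without replicate 2 of 1.25 µM the value at that dose passed (-0.37, adjusted p = 0.049).

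Rad51b and Rad51c were lower at both doses. Rad51b gave 32 and 55 reads in DMSO 1 and 2, 5 and 15 with 1.25 µM and 2 and 4 with 2.5 µM, and its log2 fold changes of -2.49 (SE 0.45) and -3.43 (SE 0.57) rest on those few reads. Rad51c stood at 8.98 and 12.3, 4.95 and 5.25, and 6.5 and 8.23 CPM (log2 fold changes -1.05 and -0.54). The second of these did not pass with DESeq2 (-0.38, adjusted p = 0.169), RLE scaling, or without DMSO replicate 2 (-0.25, edgeR adjusted p = 0.312) or replicate 1 of 2.5 µM (-0.34, adjusted p = 0.195). Its direct difference of 0.51 did not pass without replicate 1 of 1.25 µM (0.45, edgeR adjusted p = 0.0756), without replicate 2 of 2.5 µM (0.38, adjusted p = 0.148) or with total-count scaling (0.13, adjusted p = 0.591).

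In the Fanconi core complex 5 of 8 genes fell at 1.25 µM and 3 did not pass, where 23.2% of all genes tested were lower. At 2.5 µM 3 rose and 5 fell, where 33.2% of all genes were higher and 37.1% lower. Fanca, the subunit most often mutated in patients, stood at 22.5 and 22 CPM in DMSO 1 and 2, at 8.04 and 9.6 with 1.25 µM, and at 55.9 and 48.3 with 2.5 µM. The groups did not overlap, and the log2 fold changes were -1.31 (SE 0.12, edgeR adjusted p = 1.16e-10) and 1.23 (SE 0.11, adjusted p = 6.67e-12). Fancb, an X-linked subunit that sits with the ligase, stood at 7.68 and 6.6, 2.2 and 1.19, and 14.1 and 15.9 CPM (-2.20 and 1.06). Fancm, the DNA translocase that anchors the complex, stood at 20.6 and 17.6, 6.26 and 10.4, and 24.3 and 24.4 CPM (-1.13 and 0.35). The rise of Fancm turned to -0.01 (edgeR adjusted p = 1) with total-count scaling and was lost without DMSO replicate 2 (0.29, adjusted p = 0.15) and without replicate 1 of 2.5 µM (0.38, adjusted p = 0.0677).

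The other 5 core subunits were lower at 2.5 µM. Fancc, part of a bridging module, stood at 7.14 and 5.78 CPM in DMSO 1 and 2, at 3.71 and 5.19 with 1.25 µM, and at 1.52 and 2.12 with 2.5 µM. Both 2.5 µM libraries were below all others of the set, with a log2 fold change of -1.86 (SE 0.28, edgeR adjusted p = 5.94e-07). Fance, its partner, stood at 26 and 25.1, 21.9 and 21.6, and 14.7 and 15.1 CPM and fell by 0.78. Fancl, the ubiquitin ligase subunit, stood at 16.7 and 17.7, 16.2 and 19.2, and 8.27 and 12.2 CPM and fell by 0.77. None of these 3 passed at 1.25 µM (-0.50, -0.23 and 0.05 on the log2 scale, with edgeR adjusted p of 0.0668, 0.104 and 0.84), although Fancc did without DMSO replicate 2 (-0.64, adjusted p = 0.0422), without replicate 2 of 1.25 µM (-0.80, adjusted p = 0.0219), and without either or both of the 2.5 µM libraries (-0.50, adjusted p from 0.0426 to 0.0448). Compared directly, Fancc, Fance and Fancl were lower with 2.5 µM than with 1.25 µM, by -1.36, -0.55 and -0.82.

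Fancf and Fancg, the remaining adaptor subunits, had 5.68 and 5.42 CPM and 9.46 and 7.49 CPM in DMSO 1 and 2. With 1.25 µM Fancf stood at 2.06 and 4.61 CPM and Fancg at 4.61 and 4.9, and with 2.5 µM at 2.72 and 3.54 and at 3.03 and 4.87. Fancg fell by 0.83 and 1.14 on the log2 scale. The fall of Fancf at 1.25 µM was near the threshold (-0.64, edgeR adjusted p = 0.0457), was lost with DESeq2 (-0.67, adjusted p = 0.105) and was smallest without replicate 1 of 1.25 µM (-0.27, adjusted p = 0.412). Leaving out any other single library outside the ENMD-2076 doses also lost that call (adjusted p from 0.0562 to 0.136). At 2.5 µM its fall of 0.85 was lost with DESeq2 (-0.68, adjusted p = 0.0858) and without replicate 1 of that dose (-0.62, edgeR adjusted p = 0.115).

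Fancd2 had the largest fall of the 34 at 1.25 µM. This target of the core complex (ENSMUSG00000034023.10, chromosome 6, 113531682 to 113597017) stood at 20.5 and 16.8 CPM in DMSO 1 and 2, at 0.688 and 1.32 with 1.25 µM (10 and 41 reads), and at 8.02 and 10.8 with 2.5 µM. The groups did not overlap, and 2.5 µM lay between the others. Its log2 fold changes were -4.07 (SE 0.21, edgeR adjusted p = 8.05e-17), or 16.8-fold lower, and -1.01 (SE 0.16, adjusted p = 1.19e-06). Fanci, its partner in the same clamp, stood at 7.03 and 8.13, 0.825 and 1.19, and 14.8 and 16.5 CPM. Fanci therefore fell at 1.25 µM (-2.82, SE 0.22) and rose at 2.5 µM (1.04, SE 0.15, adjusted p = 4.3e-07), so the subunits of this clamp had opposite signs at 2.5 µM. Slx4, which gathers nucleases at crosslinks, stood at 32.3 and 34, 29.6 and 23.6, and 52.2 and 63.2 CPM (-0.34 and 0.79). Its small fall was lost without DMSO replicate 2 (-0.31, edgeR adjusted p = 0.0579) and without replicate 2 of 1.25 µM (-0.16, adjusted p = 0.312).

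Rad54l and Rad54b, motors that drive strand exchange, both fell at 1.25 µM. Rad54l stood at 13.3 and 8.19 CPM in DMSO 1 and 2, at 1.44 and 1.39 with 1.25 µM, and at 8.84 and 13.6 with 2.5 µM. Its 2.5 µM libraries overlapped those of DMSO (0.03, SE 0.20, edgeR adjusted p = 0.923), and its fall at 1.25 µM was -2.94 (SE 0.25, adjusted p = 2.04e-11). Rad54b stood at 20.5 and 16, 3.09 and 1.58, and 11.9 and 14.8 CPM (-3.10 and -0.47). The second value was near the threshold (adjusted p = 0.024) and was lost with DESeq2 (-0.30, adjusted p = 0.265), RLE scaling (-0.31, edgeR adjusted p = 0.135), without replicate 1 of 2.5 µM (-0.29, adjusted p = 0.259), without DMSO replicate 1 (-0.29, adjusted p = 0.234) and without any single library of the TAK901 naming set (adjusted p from 0.0512 to 0.0583).

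Blm, the helicase that dissolves joined DNA molecules, followed Brca1. It stood at 33.3 and 29.5 CPM in DMSO 1 and 2, at 6.67 and 5.19 with 1.25 µM, and at 85.7 and 84.8 with 2.5 µM. The groups did not overlap, and the log2 fold changes were -2.45 (SE 0.13, edgeR adjusted p = 1.4e-16) and 1.44 (SE 0.10, adjusted p = 5.69e-14). Its partner Rmi1 stood at 8 and 8.72, 8.11 and 9.57, and 16.5 and 17.7 CPM. Rmi1 did not pass at 1.25 µM (0.10, adjusted p = 0.653) and rose at 2.5 µM (1.03, SE 0.15, adjusted p = 6.28e-07). Rmi2, the third subunit measured, gave 26 and 38 reads in DMSO 1 and 2, 1 and 5 with 1.25 µM, and 43 and 25 with 2.5 µM. Its fall of 3.72 on the log2 scale (SE 0.54, edgeR adjusted p = 9.46e-07) rests on those 6 reads, and at 2.5 µM it overlapped DMSO (0.46, SE 0.35, adjusted p = 0.25).

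Exo1 had the largest rise of the 34 at 2.5 µM. This exonuclease, which lengthens the resected strand (ENSMUSG00000039748.6, chromosome 1, 175880581 to 175913489), stood at 13.6 and 11.2 CPM in DMSO 1 and 2, at 0.481 and 1.77 with 1.25 µM (7 and 55 reads), and at 60.5 and 71.2 with 2.5 µM. The groups lay far apart, and the log2 fold changes were -3.21 (SE 0.22, edgeR adjusted p = 1.96e-13) and 2.40 (SE 0.14, adjusted p = 8.89e-16). Between the doses Exo1 differed 48.8-fold. The genes that start resection moved less. Rad50, the hinge of the MRN complex, stood at 102 and 94.1, 56.4 and 73.2, and 46.5 and 49.2 CPM, lower at both doses (-0.58 and -1.04, SE 0.09 and 0.10). The direct difference between the doses, -0.46 (edgeR adjusted p = 0.000115), was lost without replicate 2 of 1.25 µM (-0.18, adjusted p = 0.12).

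Nbn, which brings Atm to the complex, stood at 23.7 and 24.2 CPM in DMSO 1 and 2, at 24.1 and 27.4 with 1.25 µM, and at 33.5 and 25.4 with 2.5 µM. Its rise of 0.31 at 2.5 µM (edgeR adjusted p = 0.0416) turned to -0.05 (adjusted p = 0.779) with total-count scaling and was lost with a replicate block (0.31, adjusted p = 0.0547) and without DMSO replicate 1 (0.28, adjusted p = 0.14), DMSO replicate 2 (0.37, adjusted p = 0.0505) or replicate 1 of 2.5 µM (0.11, adjusted p = 0.571). Rbbp8, which starts resection with MRN, stood at 36.9 and 33.8, 22.6 and 31.5, and 28.7 and 31.6 CPM. It was lower at 1.25 µM (-0.36, edgeR adjusted p = 0.0121), though not without DMSO replicate 1 (-0.29, adjusted p = 0.111) or replicate 1 of 1.25 µM (-0.17, adjusted p = 0.252). At 2.5 µM Rbbp8 did not pass (-0.23, adjusted p = 0.084), but did without replicate 1 of 1.25 µM (-0.25, adjusted p = 0.0231) and with total-count scaling (-0.59).

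Of the kinases, Chek1 moved in opposite directions with dose and the others did not. Chek1, the effector of Atr at stalled forks, stood at 27 and 23.5 CPM in DMSO 1 and 2, at 7.63 and 6.51 with 1.25 µM, and at 73.9 and 62.3 with 2.5 µM. The groups did not overlap, and the log2 fold changes were -1.86 (SE 0.13, edgeR adjusted p = 2.38e-13) and 1.43 (SE 0.11, adjusted p = 4.32e-13). Chek2, the effector of Atm at breaks, stood at 23.1 and 20.8, 5.36 and 6.41, and 13.1 and 11.8 CPM, lower at both doses (-1.87 and -0.82, with adjusted p of 4.83e-13 and 2.07e-06). Atm, the kinase that senses breaks, stood at 72.9 and 63.4, 62.4 and 61, and 37.4 and 38.2 CPM. Atm did not pass at 1.25 µM (-0.15, adjusted p = 0.176) and was 1.8-fold lower at 2.5 µM (-0.85, SE 0.09, adjusted p = 1.83e-09). Atr, which senses exposed single strands, stood at 57 and 52.8, 37.1 and 48, and 39.9 and 35.5 CPM (-0.35 and -0.54). Its fall at 1.25 µM was lost without DMSO replicate 1 (-0.29, edgeR adjusted p = 0.0536) and without replicate 1 of that dose (-0.19, adjusted p = 0.111).

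**Figure D2:**
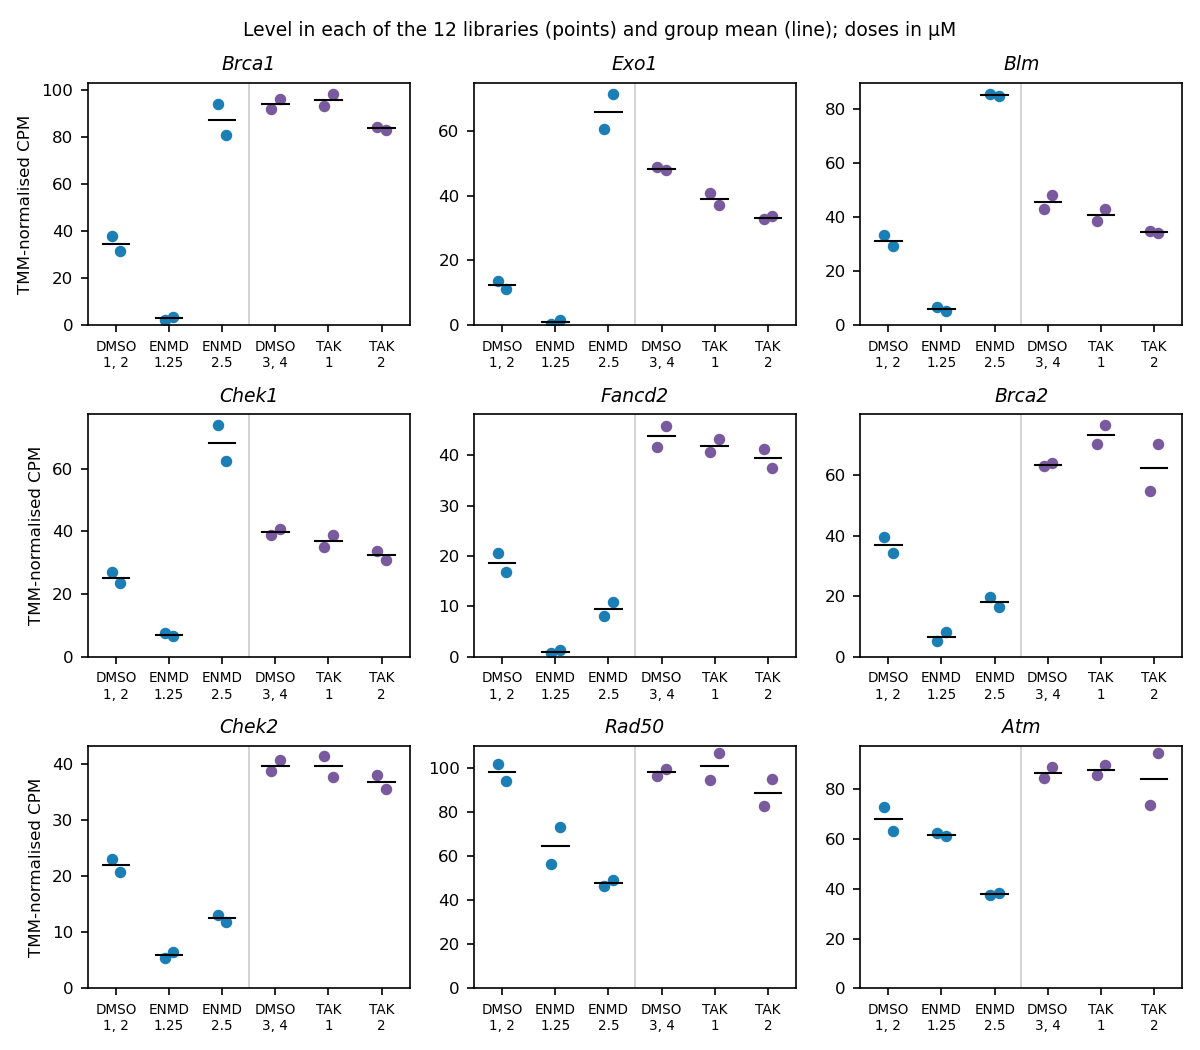
TMM-normalised CPM (y axis, from 0) of 9 of the genes in each of the 12 libraries (points) by group (x axis, doses in µM), with lines for the mean of the 2 libraries. Brca1, Exo1, Blm and Chek1 are lowest at 1.25 µM and highest of their naming set at 2.5 µM ENMD-2076, Fancd2, Brca2 and Chek2 stay below DMSO 1 and 2 at both doses, and Rad50 and Atm are lowest at 2.5 µM.

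Per length of annotated exon, the abundance of the genes in DMSO 1 and 2 ranged from 0.405 RPKM (CPM per kilobase of exon) for Rmi2 to 18.3 for Rad50. Xrcc3 at 9.59, Nbn at 9.44 and Fance at 8.01 RPKM came next, and Rad51b (0.662), Palb2 (0.766) and Fancc (0.772) stood near the bottom. With 2.5 µM ENMD-2076 the highest levels were those of Xrcc3 at 18.8, Chek1 at 14.7, Nbn at 11.6 and Brca1 at 10.3 RPKM, and Rad50 stood at 8.9. Brca1 and Brca2, which act in the same step, stood at 4.08 and 2.7 RPKM in DMSO 1 and 2 and at 10.3 and 1.32 RPKM with 2.5 µM.

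With TAK901 few of these genes passed the test in the fit of all 12 libraries. The mitochondrial share of reads was higher in all 4 treated libraries than in DMSO 3 and 4, and its part in these values was not tested. At 1 µM 0 of the 34 were called higher or lower against DMSO 3 and 4 (edgeR), where 9.14% of all genes tested were called, 3.97% higher and 5.17% lower. At an unadjusted p under 0.05 edgeR gave 0 higher and 4 lower, where 20.5% of all genes tested had such a p. DESeq2 called 0, with 2 not given an adjusted p. The median log2 fold change was -0.10, against 0.00 over all genes, with a range from -0.38 (Rmi2) to 0.32 (Rad51b) and SE of 0.08 to 0.33. Fitted on the libraries of the naming set alone, 1 was higher (Brca2, 0.21, edgeR adjusted p = 0.0228) and 3 were lower (Exo1, Fanca and Fancl), and with only the groups compared 1 was higher and 5 were lower. The share of all genes called in these fits was not counted. A fall of Exo1 also passed without replicate 1 (-0.32, edgeR adjusted p = 0.0245) or replicate 2 (-0.32, adjusted p = 0.0218) of ENMD-2076 1.25 µM.

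At 2 µM TAK901 4 of the 34 fell and 0 rose, where 14.9% of all genes tested were called, 5.63% higher and 9.28% lower. In this fit of all 12 libraries the share of members called lower was thus near the background. The share of all genes called was not counted for the other fits given below. The median of the members was -0.18 and that of all genes -0.02, and 32 of the 34 values lay below 0, as did 52.9% of all genes. Exo1 stood at 48.7 and 48 CPM in DMSO 3 and 4, at 40.9 and 37 with 1 µM, and at 32.7 and 33.7 with 2 µM. All 4 treated libraries lay below both DMSO libraries, and the log2 fold change at 2 µM was -0.55 (SE 0.15, edgeR adjusted p = 0.00899), or 1.46-fold lower. Fanca stood at 52.3 and 53.1, 46.3 and 43, and 38.7 and 35.8 CPM in the same order (-0.49 at 2 µM, SE 0.11, adjusted p = 0.00238).

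The other genes that passed at 2 µM were Fance and Blm. Fance stood at 23.9 and 26.2 CPM in DMSO 3 and 4, at 21.6 and 21 with 1 µM, and at 17.2 and 19.3 with 2 µM (-0.47 at 2 µM, SE 0.14, edgeR adjusted p = 0.0211). Blm stood at 42.9 and 48.2, 38.5 and 43.1, and 35.1 and 34.1 CPM (-0.39, SE 0.12, adjusted p = 0.0197). Both groups of 2 µM libraries lay below the DMSO libraries. DESeq2 called 2 members, not Fance (adjusted p = 0.0603) and not Blm (adjusted p = 0.0536). The count of 4 was 2 without DMSO replicate 4, 1 without replicate 1 of 2 µM and 2 without replicate 2 of 2 µM, and it rose to 10 in a fit of this naming set alone and to 8 with only the groups compared. Without replicate 1 of 2 µM, Exo1 (-0.52, edgeR adjusted p = 0.155), Fance (-0.37, adjusted p = 0.28) and Blm (-0.42, adjusted p = 0.149) did not pass. Without replicate 2 of 2 µM Exo1 (-0.57, edgeR adjusted p = 0.0705) and Blm (-0.38, adjusted p = 0.126) did not, and without DMSO replicate 4 Fance (-0.40, adjusted p = 0.186) and Blm (-0.31, adjusted p = 0.217) did not.

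Brca1 showed no difference past the threshold with TAK901. It stood at 92.2 and 96.1 CPM in DMSO 3 and 4, at 93.5 and 98.3 with 1 µM, and at 84.4 and 83.1 with 2 µM (0.03 and -0.17, SE 0.09 and 0.10, edgeR adjusted p of 0.911 and 0.286). The 2 µM libraries lay below the others, within a difference the test did not call. Fancd2 stood at 41.6 and 45.8, 40.6 and 43.1, and 41.3 and 37.5 CPM (-0.06 and -0.14). Rad54l stood at 27 and 28.5, 26.8 and 24.8, and 20.8 and 17.9 CPM, and its value of -0.51 at 2 µM missed the threshold (adjusted p = 0.0725) but passed without DMSO replicate 1 (-0.52, adjusted p = 0.03), without DMSO replicate 2 (-0.51, adjusted p = 0.0353) and without either library of ENMD-2076 2.5 µM (-0.51). Of the kinases, Atm, Atr, Chek1 and Chek2 had -0.06, -0.02, -0.29 and -0.11 at 2 µM, none past the threshold.

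Between the TAK901 doses 0 members were called by edgeR, where 0.0715% of all genes tested were, 0.0455% higher and 0.026% lower. With an unadjusted p under 0.05 edgeR gave 0 members higher and 3 lower, where 7.77% of all genes tested had such a p. DESeq2 gave no adjusted p for any of the 34. The differences ranged from -0.51 (Rad51b) to 0.30 (Fancc), with SE of 0.09 to 0.41. The doses of TAK901 and ENMD-2076 differ and their DMSO libraries are not the same, so their values stand side by side here without a comparison.

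**Figure D3:**
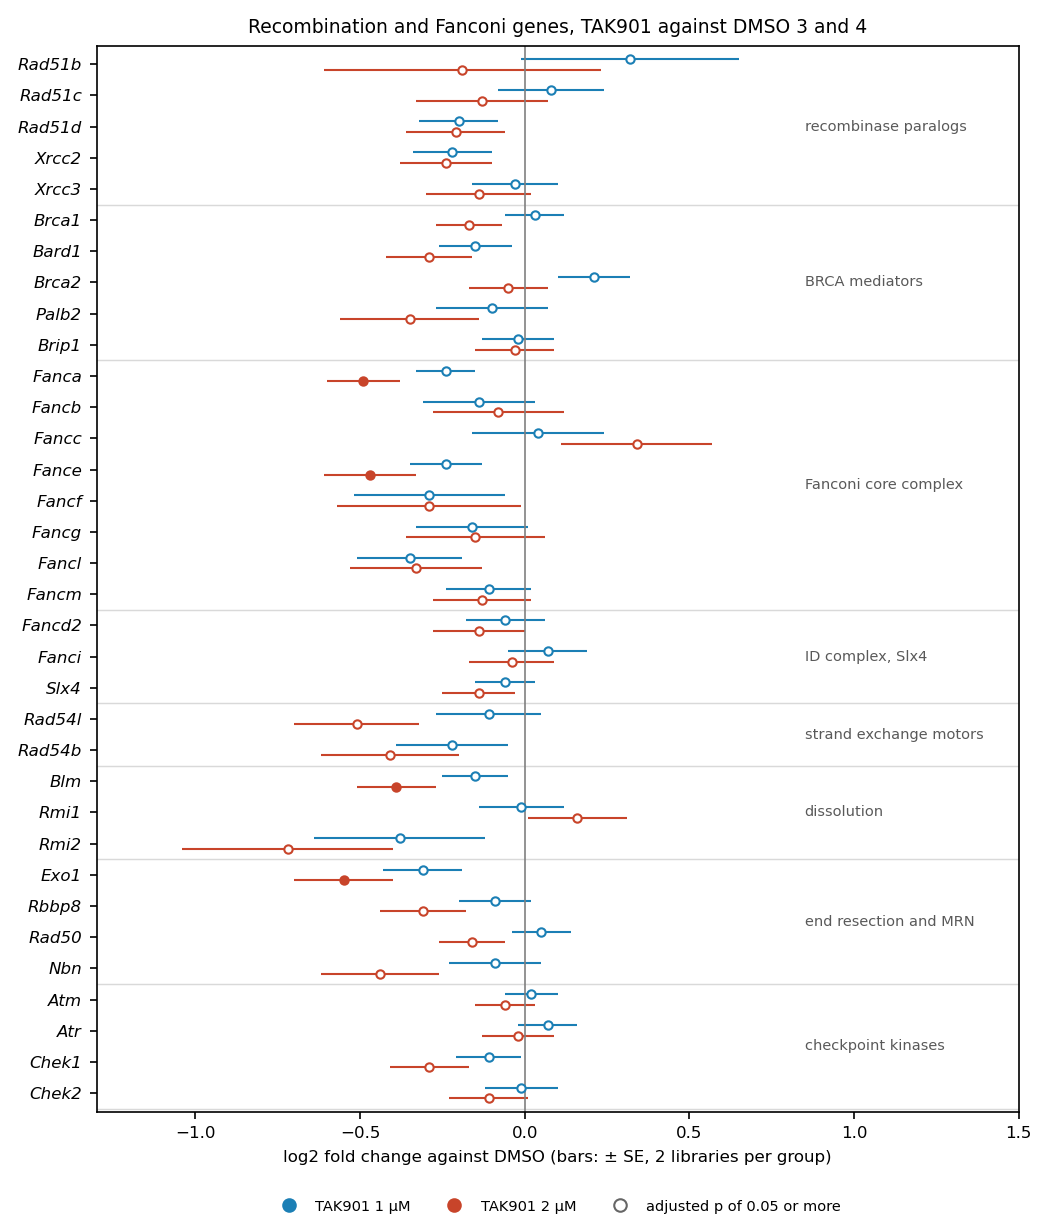
Log2 fold change of each of the 34 genes against DMSO 3 and 4 (x axis, bars ± SE, 2 libraries per group) for both TAK901 doses, on an axis narrower than that of the ENMD-2076 plot. Filled points passed the test (edgeR), and they are Fanca, Fance, Blm and Exo1 at 2 µM.

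The untreated libraries of the naming sets differed in these genes. Of the 34, 23 were higher in DMSO 3 and 4 than in DMSO 1 and 2, 1 was lower and 10 did not pass, where 67.3% of all genes tested were called, 36.6% higher and 30.6% lower. The median difference was 0.71 in the members and 0.08 over all genes. Fanci, the clamp subunit, stood at 34.7 and 32.7 CPM against 7.03 and 8.13, a log2 difference of 2.15 (SE 0.14, edgeR adjusted p = 1.17e-14). Exo1 differed by 1.96, Rmi2 by 1.93 and Brca1 by 1.43, and Rad50 (-0.00) and Atr (-0.00) did not. Nbn was the gene that was lower (17.4 and 16.8 against 23.7 and 24.2 CPM, -0.48, adjusted p = 0.00224). Fancc (0.49, edgeR adjusted p = 0.0366) was lost without DMSO replicate 2 (0.35, adjusted p = 0.205), replicate 3 (0.41, adjusted p = 0.195) or replicate 4 (0.58, adjusted p = 0.0603). Other genes separated these libraries too. Hnf4a, an endoderm regulator, stood at 0 reads in DMSO 1 and 2 and at 214 and 206 CPM in DMSO 3 and 4, the 4 Y-linked markers summed to 0 and to 251 to 253 CPM, and Epcam stood at 350 and 355 and at 88 and 89 CPM. Naming set, batch and the cells themselves cannot be told apart here.

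Neighbouring repair pathways were described from lists of genes that are not members, and over all genes tested 22.6% rose and 23.2% fell at 1.25 µM ENMD-2076, while 33.2% rose and 37.1% fell at 2.5 µM. At 1.25 µM ENMD-2076, 6 of 45 other recombination and Fanconi genes rose and 27 fell (median -0.39). At 2.5 µM 21 of them rose and 13 fell (0.25). Polq, the polymerase of microhomology-mediated joining, stood at 14.5 CPM in DMSO 1 and 2 and at 1.57 with 1.25 µM (log2 fold change -3.25, SE 0.17, edgeR adjusted p = 3.02e-16), and 2.5 µM exceeded 1.25 µM by 4.89. Rpa2, a subunit of the protein that coats single strands, rose by 3.04 at 2.5 µM, and Mus81, a nuclease that cuts joined molecules, fell by 2.19. Among 31 checkpoint and damage signalling genes, 3 rose and 20 fell at the lower dose (-0.50), and 10 rose and 15 fell at the higher one (-0.17). Clspn, the adaptor that lets Atr switch on Chek1, rose by 1.80 at 2.5 µM and stood 4.84 above its level at 1.25 µM.

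Repair pathways that do not copy a sister chromatid had medians nearer to 0 at 1.25 µM than the 34 genes. So did the 45 other recombination and Fanconi genes (-0.39), so the contrast does not set recombination apart from these pathways. End joining, with 12 genes, had 1 that rose and 2 that fell there (-0.07), and 3 that rose and 9 that fell at 2.5 µM (-1.07), among them the ligase partner Xrcc4 (-2.58) and Nhej1 (-2.81). Nucleotide excision repair, with 19 genes, had 3 genes up and 3 down at the lower dose (0.02), then 10 up and 9 down (0.14). Base excision and single-strand break repair, with 20 genes, had 2 up and 9 down (-0.33), then 4 up and 12 down (-0.65). Mismatch repair, with 7 genes, had 0 up and 5 down (-0.43), then 2 up and 5 down (-0.68), with Pms2 at -1.11 and then 1.73.

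DNA replication genes mostly fell at the lower dose and rose at the higher one. Of 41 tested, 41 fell at 1.25 µM (median -1.82), and at 2.5 µM 33 rose and 2 fell (1.07). Mcm3, part of the replicative helicase, stood at 118 and 116 CPM in DMSO 1 and 2, at 23.5 and 25.6 with 1.25 µM, and at 936 and 933 with 2.5 µM. Few mitosis genes rose: all 32 fell at 1.25 µM (-3.09), and 4 rose and 21 fell at 2.5 µM (-0.53). The cyclins Ccne1 and Ccnb1, which peak at the start of S phase and in mitosis, stood at 3.73 and 3.71 CPM and at 115 and 108 CPM in DMSO 1 and 2, and at 17 and 14.9 CPM and at 74.5 and 59.4 CPM with 2.5 µM. The part of cell cycle phase in the members' values was not tested.

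With TAK901 replication was the list with most calls. Over all genes tested 5.63% rose and 9.28% fell at 2 µM TAK901, and 3.97% rose and 5.17% fell at 1 µM. At 2 µM 34 of 41 replication genes fell and 0 rose (median -0.44), 4 of 32 mitosis genes fell (-0.07), and 9 of 45 other recombination genes fell (-0.16), with Dna2, a nuclease of resection, at -1.03 (SE 0.18, edgeR adjusted p = 0.000122). Of 20 p53 target genes 9 rose and 1 fell (0.29), led by the death receptor gene Fas at 1.21. With ENMD-2076 the same list had 9 that rose and 6 that fell at 1.25 µM (0.05), with Fas at 4.32 and the cell cycle inhibitor gene Cdkn1a at -2.74, and 7 that rose and 10 that fell at 2.5 µM (-0.22). With 1 µM TAK901 21 replication genes fell (-0.24), 1 mitosis gene rose and 7 p53 targets rose (0.21).

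**Figure D4:**
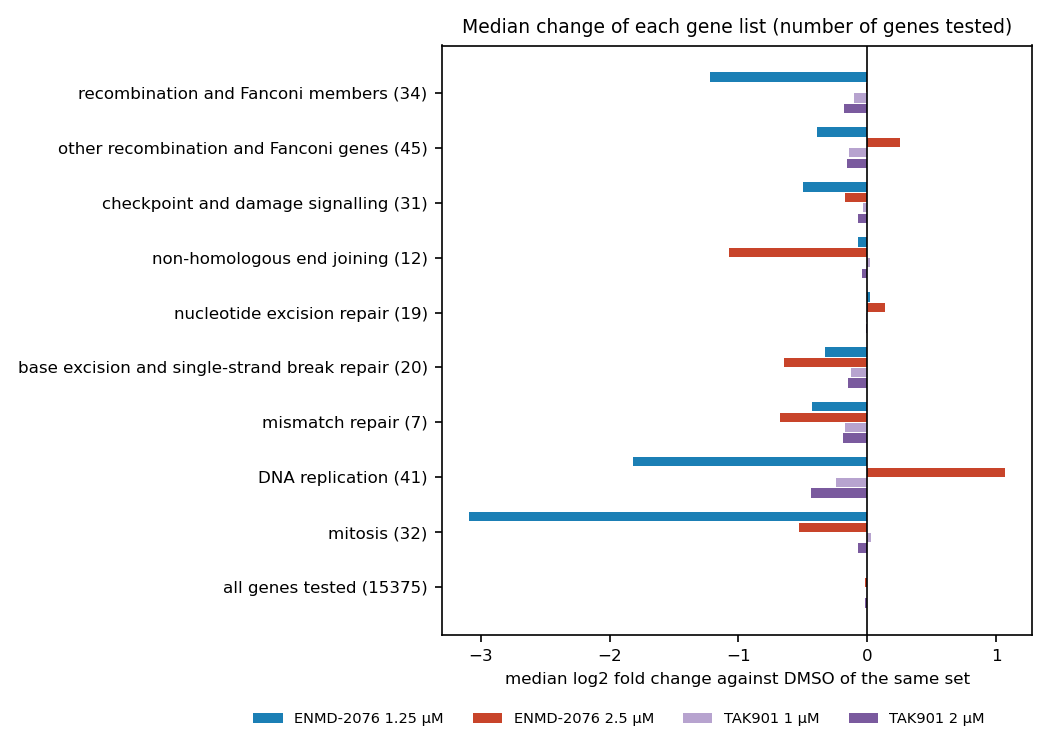
Median log2 fold change against DMSO of the same naming set (x axis) for the members, 8 other gene lists and all genes tested, with the number of genes tested in brackets and a bar for each compound and dose; bars too short to see are medians near 0. Replication is at -1.82 and 1.07 and mitosis at -3.09 and -0.53 for the ENMD-2076 doses, where the members are at -1.22 and -0.01.

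Some counts can be affected by a neighbour. In the TAK901 naming set 1.82 to 2.5% of reads were set aside as ambiguous, so shared bases may lose reads and not gain them. No such share is given for the ENMD-2076 set. In GENCODE mouse release 21, 12 of the 34 genes share exon bases with another gene, 11 of them on the opposite strand, and the counting strand is not given in the sources used here. The shared part was 35.8% of the exon length for Rad54b (with Fsbp, same strand), 16.4% for Fancc, 16% for Fanci (with Polg), 15.4% for Rad54l (with Lrrc41), 15% for Fancf (with Gas2), 13.7% for Fancl (with Vrk2) and 10.5% for Fanca (with Zfp276). Brca1, Brca2, Bard1, Blm, Exo1, Chek1, Chek2, Rad50 and Atm share none with another counted gene.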

How the data were processed

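Per library, the authors deposited whole-number read counts, 1 per gene ID. HTSeq, TopHat, Bowtie, DESeq2, FastQC 0.11.3 and the builds hg38 and mm10 are named in the submitters' processing notes. Their order and settings, the annotation and the strand counted were not given in the sources used here, nor were other versions. The 12 tables labelled 4T1 were used, summary lines left out, and the human libraries were not analysed here. ENMD-2076 doses follow the treatment labels and design text, and the growth protocol gives 1 or 2 µM. The column headers of those tables name no compound and the same other dose for both treated groups, which differ there by a leading 1 or 2.

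Symbols and exon lengths come from GENCODE mouse release 21, which matched 37607 of 38924 IDs. Counts were tested with edgeR 4.0.16 (R 4.3.3): filterByExpr, TMM scaling and 1 quasi-likelihood fit of the 6 groups. P-values are two-sided and adjusted by Benjamini-Hochberg over 15375 genes with a threshold of 0.05. SE was taken as |log2 fold change| divided by the root of the F statistic. Members and lists were chosen with earlier results of these data known. All 34 members could be named, and of each other list at most the 2 largest rises and falls past the threshold per comparison, with cell markers and a few cell cycle genes beside them. Replicates 1 and 2 did not pair libraries (correlations -0.0131 to 0.0236), and no duplicates were found (chi-square per degree of freedom 2.48 to 7.63). Alternatives were DESeq2 1.42.0, RLE and total-count scaling, no filter, fewer libraries in the fit and a replicate block.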

Additional observations from a re-analysis of the deposited data

Results flagged for a closer look

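For 13 genes the effect against DMSO 1 and 2 had opposite signs at the ENMD-2076 doses, lower at 1.25 µM and higher at 2.5 µM, and the direct test between the doses passed in edgeR. Over all genes tested 23.2% were lower at 1.25 µM and 33.2% higher at 2.5 µM, and the share with both was not counted. Both effects share the DMSO libraries, and the genes were picked by their opposite calls and a passing direct test. A large direct difference largely follows from that choice and is given as a description only. On the log2 scale it was 5.61 for Exo1, 4.75 for Brca1, 3.89 for Blm, 3.86 for Fanci, 3.30 for Chek1, 3.26 for Fancb, 2.91 for Xrcc2, 2.82 for Palb2, 2.54 for Fanca, 1.48 for Fancm, 1.43 for Xrcc3, 1.23 for Bard1 and 1.13 for Slx4. The smaller effects of Fancm, Bard1, Slx4 and Xrcc3 against DMSO depended on single libraries or the scaling, as given beside them.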

How the results depend on the processing

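With TAK901 1 µM the count of members called higher went from 0 to 1 in a fit of the naming set alone and to 1 with only the groups compared. The count called lower went from 0 to 1 with no filter, to 3 in the naming set alone, to 5 with only the groups compared, and to 0 to 1 with any library left out. At 2 µM the 4 called lower became 2 with DESeq2, 10 in the naming set alone, 8 with only the groups compared, and 1 to 5 with any library left out; the cause was not tested. Counts for ENMD-2076 stayed within 1.5 times under every setting run: leaving out a library gave 23 to 28 lower at 1.25 µM, 13 to 15 higher and 12 to 16 lower at 2.5 µM, and 21 to 24 higher and 5 to 8 lower between doses. Total-count scaling reversed Fancm to -0.01 and Nbn to -0.05 at 2.5 µM; no other member reversed. A replicate block gave 27 lower at 1.25 µM, 14 higher and 15 lower at 2.5 µM, 22 higher and 6 lower between doses and 4 lower with TAK901 2 µM; replicate numbers did not pair the libraries. Few reads stand behind Rmi2 (1 and 5 at 1.25 µM) and Rad51b (2 and 4 at 2.5 µM), and the TAK901 2 µM pair had the lowest totals, 6004077 and 3746588 reads. The share of all genes called was not counted under these other settings.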

Other observations

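Mcmdc2, a relative of the replicative helicase known from meiotic recombination and no member of the 34, was named after its values were seen, and its reads lay mostly in 1 group of the 12 libraries. It had 0 reads in DMSO 1 and 2, 4 and 1 with 1.25 µM ENMD-2076, 425 and 289 with 2.5 µM, and 0 to 2 in each library of the other naming set. In CPM of the total count these were 20.5 and 20 at 2.5 µM, at least 115-fold higher than a floor of 3 reads per library in DMSO 1 and 2. Its exons overlap those of Snhg6, the counting settings are not stated, and the part of Snhg6 in these reads was not tested.

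In base excision repair the glycosylases Ung and Mpg had the largest rise and fall of their list at 2.5 µM. They were named for that, so their opposite signs follow from the choice. Of the 20 genes tested in that list 4 rose and 12 fell, where 33.2% of all genes tested were higher and 37.1% lower. Ung, which removes uracil, rose by 1.97 on the log2 scale (6.61 to 26.2 CPM, edgeR adjusted p = 9.5e-11), and Mpg, which removes alkylated bases, fell by 3.91 (9.9 to 0.568 CPM, adjusted p = 2.49e-10). Parp1, the break sensor, rose from 96 to 284 CPM. Neil3, a glycosylase that can open crosslinks, stood at 26 CPM in DMSO 1 and 2 and at 1.42 CPM with 1.25 µM (a log2 change of -3.93, edgeR adjusted p = 4.13e-15).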
